A study of Homo sapiens with 6 samples.

Results

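Transcript levels of the proteasome and of the enzymes that activate and carry ubiquitin were followed in SNU449 cells, a line established from a human hepatocellular carcinoma. The genes were chosen by symbol alone: PSMA to PSMG genes without PSMC3IP, POMP, ADRM1, UBE2 genes and UBA1 to UBA7. That rule matched 85 of the 13117 genes in the expression table, namely 14 of the 20S core, 18 of the 19S cap, 13 assembly factors, activators and inhibitors, 6 E1 enzymes and 33 E2 enzymes or E2-like genes, and PSME3IP1, which binds PSME3 and was matched by its symbol only. Both groups carried the doxycycline-inducible vector pInducer20 with FOXO1AAA, a FOXO1 whose AKT phosphorylation sites are replaced. FOXO1 is a transcription factor of the forkhead family. The Dox group received 2 µM doxycycline hydrochloride for 48 h and the Cont group did not. Each group had 3 poly(A) libraries, and the genotype of all of them is given as WT. No library had doxycycline without the construct, so effects of doxycycline and of FOXO1AAA cannot be told apart in any result below. The labels do not say whether the 3 libraries are separate cultures or whether the line is 1 clone. The p-values therefore measure only how much these samples varied, and that spread may be technical.

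Proteins are marked for destruction in a relay. An E1 enzyme activates ubiquitin, an E2 enzyme receives it, and an E3 ligase directs its transfer to a substrate. The 26S proteasome reads the ubiquitin chain with its 19S cap, removes the chain, unfolds the substrate with a ring of ATPases and cuts it inside the 20S core, a stack of alpha and beta rings. In liver cancer cells, as in other dividing cells, the system also times the cell cycle by destroying cyclins and other regulators.

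Levels are in FPKM, fragments per kilobase of transcript scaled to the number of mapped reads, a scale that is per length and so allows levels of different genes to be compared. Changes are differences of log2(FPKM + 1) between Dox and Cont, tested with limma over 11526 genes with an adjusted p under 0.05 called changed. FOXO1 mRNA was at 2.87, 3.503 and 2.01 FPKM in the Dox libraries and 0.741, 0.776 and 0.890 in the Cont libraries (log2 change 1.06, limma adjusted p = 9.84e-05), and the table does not separate the cells' own gene from the construct. Of all genes tested, 80.4% were called, 42.8% lower and 37.6% higher in Dox, and 82.1% had groups that did not overlap. The median change of all genes was -0.06, or 0.19 after the values were rescaled to transcripts per M (TPM, the same total in every library) without the mitochondrially encoded genes. Those genes took 14.1% of the summed FPKM in Dox and 3.73% in Cont. With that rescaling 59.0% of all calls were higher in Dox, against 46.7% without it. Sequencing depth relative to the mean of the 6 libraries was 0.872 to 1.31 in Dox and 0.79 to 1.16 in Cont, and absolute depth is unknown. Of 9 hepatocyte markers only 3 had values. Among these only AFP passed the filter on low values, and ALB missed it. The absence of a value for the other markers does not show that they were low. The markers with values summed to 5.62 to 9.81 FPKM in Dox and 7.61 to 17.8 FPKM in Cont. The mesenchymal markers VIM, CDH2 and FN1 summed to 296 to 355 FPKM in Dox and 946 to 961 FPKM in Cont, with VIM and CDH2 lower and FN1 higher in Dox (log2 change 1.88, limma adjusted p = 9.56e-07). The fibroblast genes COL1A1 and COL1A2 summed to 41.3 to 57.6 FPKM in Dox and 202.7 to 230.0 FPKM in Cont, and the epithelial genes KRT8, KRT18 and CDH1 to 32.8 to 34.5 FPKM in Dox and 122.3 to 127.2 FPKM in Cont. None of the 3 immune markers was analysed here, and the endothelial markers PECAM1 and CDH5 summed to less than 1 FPKM in every library. The part of these markers in the results was not tested.

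Most proteasome genes were lower in the Dox cells, and E2 genes were called in both directions, as were all genes. Of the 84 members that passed the filter, 55 fell and 16 rose, that is 65.5% and 19% of them, beside 42.8% and 37.6% of all genes, and 13 were not called. The groups did not overlap for 76 members, 90.5% of those tested, beside 82.1% of all genes. The 20S core had 11 of 14 genes lower and 1 higher, with a median change of -0.74. The 19S cap had 14 of 18 lower and 2 higher, with a median of -0.57. Among E1 and E2 genes 21 of 38 fell and 11 rose, with a median of -0.26. The 33 E2 genes alone had 17 lower and 11 higher, or 51.5% and 33.3%, not far from the shares of all genes. Of the 84, 17 fell by at least 2-fold on this scale, beside 16.6% of all genes, and 8 rose by at least 2-fold, beside 16.3% of all genes. In bulk RNA, a smaller number of cells with a transcript and less of it per cell cannot be told apart.

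**Figure D1:**
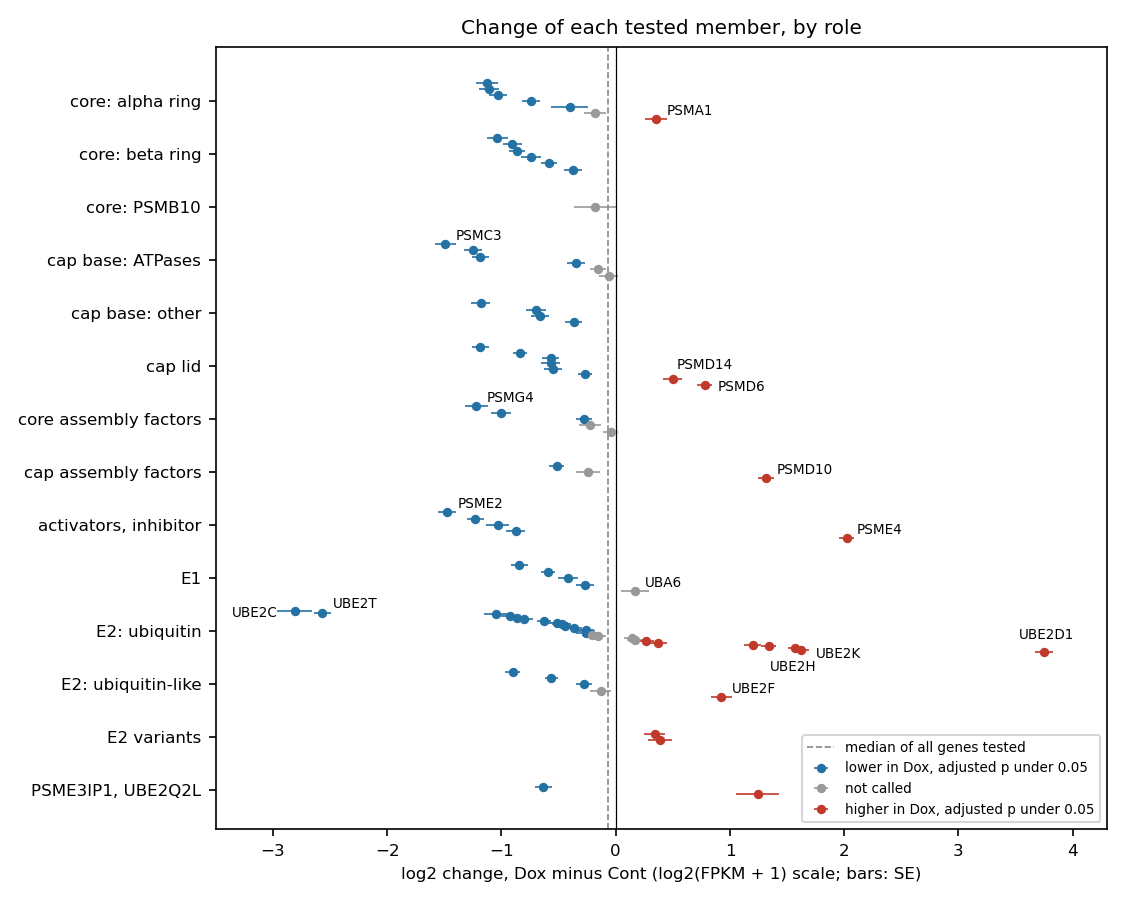
Difference in log2(FPKM + 1), Dox minus Cont, of each of the 84 tested members in rows by role, with bars for the SE of limma. Blue points were called lower in Dox, red points higher and grey points neither. The dashed line is the median of all 11526 genes at -0.06. The core and cap lie mostly to its left, with PSMA1, PSMD14 and PSMD6 on the right, and the ubiquitin E2 enzymes spread from UBE2C at -2.81 to UBE2D1 at 3.75.

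Promoter windows of 300 bases, from 250 before to 50 after the annotated start, were taken from RefSeq (GRCh38.p14) for the 69 members that had one. Each window was searched on both strands for the core of the antioxidant response element (TGACNNNGC), bound by NFE2L1 and NFE2L2, which are known to drive proteasome genes, for a forkhead motif (TGTTTAC), the cell cycle homology region core (TTTGAA), an E-box (CACGTG) and the CCAAT box (CCAAT). The windows below belong to 2 pairs of members that share elements and moved oppositely: PSMC4 fell and PSME4 rose, each with an antioxidant response element core, and UBE2T fell and PSMD14 rose, each with a cell cycle homology region core and CCAAT boxes. The pairs were chosen for these traits after their values were seen, so they are examples and test nothing. Each window is printed 5′ to 3′ on its gene's strand, with matches in capitals: for PSMC4 chr19:39970915-39971214 on the plus strand, for PSME4 chr2:53970944-53971243 on the minus strand, for UBE2T chr1:202341887-202342186 on the minus strand and for PSMD14 chr2:161308175-161308474 on the plus strand.
PSMC4: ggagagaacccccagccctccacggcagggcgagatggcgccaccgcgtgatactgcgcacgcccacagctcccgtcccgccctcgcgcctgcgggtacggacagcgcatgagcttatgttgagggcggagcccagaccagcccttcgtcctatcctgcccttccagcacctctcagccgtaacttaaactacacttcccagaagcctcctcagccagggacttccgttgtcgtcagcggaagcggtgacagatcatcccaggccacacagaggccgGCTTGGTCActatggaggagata
PSME4: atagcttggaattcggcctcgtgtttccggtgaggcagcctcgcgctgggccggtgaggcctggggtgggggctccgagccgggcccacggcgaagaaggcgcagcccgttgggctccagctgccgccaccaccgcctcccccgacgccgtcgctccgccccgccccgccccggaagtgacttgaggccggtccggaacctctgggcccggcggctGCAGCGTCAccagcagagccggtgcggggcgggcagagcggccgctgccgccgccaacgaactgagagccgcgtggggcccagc
UBE2T: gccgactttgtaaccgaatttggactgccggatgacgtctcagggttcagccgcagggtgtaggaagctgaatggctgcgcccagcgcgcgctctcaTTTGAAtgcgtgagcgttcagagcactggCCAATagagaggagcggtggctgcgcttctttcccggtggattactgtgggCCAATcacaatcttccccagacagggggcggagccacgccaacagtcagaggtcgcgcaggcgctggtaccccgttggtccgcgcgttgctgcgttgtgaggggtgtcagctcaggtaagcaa
PSMD14: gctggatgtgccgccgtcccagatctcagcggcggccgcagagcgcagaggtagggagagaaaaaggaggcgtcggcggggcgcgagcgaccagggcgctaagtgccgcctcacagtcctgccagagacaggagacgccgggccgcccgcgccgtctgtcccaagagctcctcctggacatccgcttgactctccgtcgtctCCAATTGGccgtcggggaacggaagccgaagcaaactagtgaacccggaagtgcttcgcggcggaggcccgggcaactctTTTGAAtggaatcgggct
The match in PSMC4 lay past the start site, 27 bases into the transcribed part, and that in PSME4 lay 34 bases before it, both read on the opposite strand. In UBE2T the cell cycle core stood 153 bases and the CCAAT boxes 124 and 73 bases before the start. In PSMD14 the cell cycle core lay past the start site, 32 bases into the transcribed part. Its 2 CCAAT matches, 48 and 45 bases before the start, overlapped, 1 on each strand. The antioxidant response element core was in 16 of the 69 windows, or 23.2%, beside 13.6% of all 27305 promoters and 15.0% of the 10543 promoters of genes in the expression table. By group it was in 7 of 12 windows of assembly factors, activators and inhibitors, 5 of 17 cap windows, 4 of 29 E1 and E2 windows and 0 of 10 core windows. It was in 23.9% of the 46 windows of members that fell and in 18.2% of the 11 of members that rose. The forkhead motif was in the windows of PSMB2 and PSMD5 only, 2.9% beside 3.41% of all promoters and 2.21% of those of genes in the expression table. The CCAAT box was in 36.2%, beside 35.7% of all and 36.4% of those in the table, and in 51.9% of the 27 core and cap windows. The cell cycle core was in 10.1%, beside 15.4% of all and 9.78% of those in the table. The E-box was in 5.8%, beside 7.43% of all and 9.82% of those in the table. A match describes letters in a window and is not a measured binding site.

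Of the 7 genes of the alpha ring, which gates the core, 5 fell, by up to 2.22-fold, PSMA1 rose and PSMA2 was not called. Among all genes 42.8% were lower and 37.6% higher. PSMA3 was at 50.4, 46.8 and 54.6 FPKM in the Dox libraries and 116, 123 and 97.7 FPKM in the Cont libraries (log2 change -1.13, SE 0.096, limma adjusted p = 2.27e-06). PSMA4 was at 87.0, 83.2 and 93.2 FPKM in Dox and 193, 212 and 169 FPKM in Cont (log2 change -1.11, limma adjusted p = 1.63e-06). Every Dox library lay below every Cont library for both genes, and Cont 3 was the lowest of its group. PSMA7 had the highest level of the core at 345, 332 and 375 FPKM in Dox, against 733, 752 and 660.2 FPKM in Cont, a log2 change of -1.03. PSMA5 fell by 0.74. PSMA1 went the other way, at 32.2, 29.4 and 36.6 FPKM in Dox and 23.3, 25.3 and 27.5 FPKM in Cont (log2 change 0.35, limma adjusted p = 0.00667). All 3 Dox libraries were above all 3 Cont libraries, though 24.7% of its exon length overlaps another annotated gene on the same strand. PSMA2 and PSMA6 had very low values for subunits of an obligate ring. PSMA2 was at 2.75, 2.50 and 2.55 FPKM in Dox and 2.89, 3.26 and 3.07 FPKM in Cont, and was not called (limma adjusted p = 0.113). PSMA6 was at 1.90, 1.34 and 0.935 FPKM in Dox and 1.76, 2.09 and 2.56 FPKM in Cont. Its groups overlapped, and its call (log2 change -0.40, limma adjusted p = 0.0422) ended in 8 of 17 alternatives, among them leaving out Dox 2, Dox 3, Cont 2 or Cont 3. PSMA2 shares 14.6% of its exon length with another gene on the same strand and PSMA6 shares 14.1%, and both have named pseudogenes. No source used here gives how shared reads were counted.

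The beta ring carries the cutting sites, and all 6 of its standard subunits with values fell, beside 42.8% of all genes. PSMB5, the chymotrypsin-like subunit and the main target of proteasome inhibitors, was at 188, 192 and 224 FPKM in Dox and 427, 438 and 373 FPKM in Cont (log2 change -1.04, SE 0.09, limma adjusted p = 2.83e-06). PSMB7, the trypsin-like subunit, was at 139, 139 and 154 FPKM in Dox and 273, 265 and 249 FPKM in Cont, a log2 change of -0.86. PSMB6, the caspase-like subunit, was at 81.7, 86.0 and 83.5 FPKM in Dox and 149, 153 and 123 FPKM in Cont, a log2 change of -0.74. The groups of all 3 catalytic genes stood well apart, and in PSMB5 the Dox 3 and Cont 3 libraries were the closest to each other. PSMB2, a structural subunit, was at 29.5, 30.9 and 33.8 FPKM in Dox and 63.7, 61.5 and 54.1 FPKM in Cont (log2 change -0.91, limma adjusted p = 4.33e-06). The other structural subunits PSMB4 and PSMB1 changed by -0.58 and -0.38. PSMB10, which replaces PSMB7 in the immunoproteasome, was at 3.99, 5.04 and 4.95 FPKM in Dox and 7.74, 5.11 and 3.87 FPKM in Cont and was not called (limma adjusted p = 0.401). Cont 1 was the highest and Cont 3 the lowest of its 6 values, and 34.8% of its exon length overlaps another gene on the same strand. PSMB3, PSMB8, PSMB9, PSMB11 and PSMA8 were not analysed here.

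**Figure D2:**
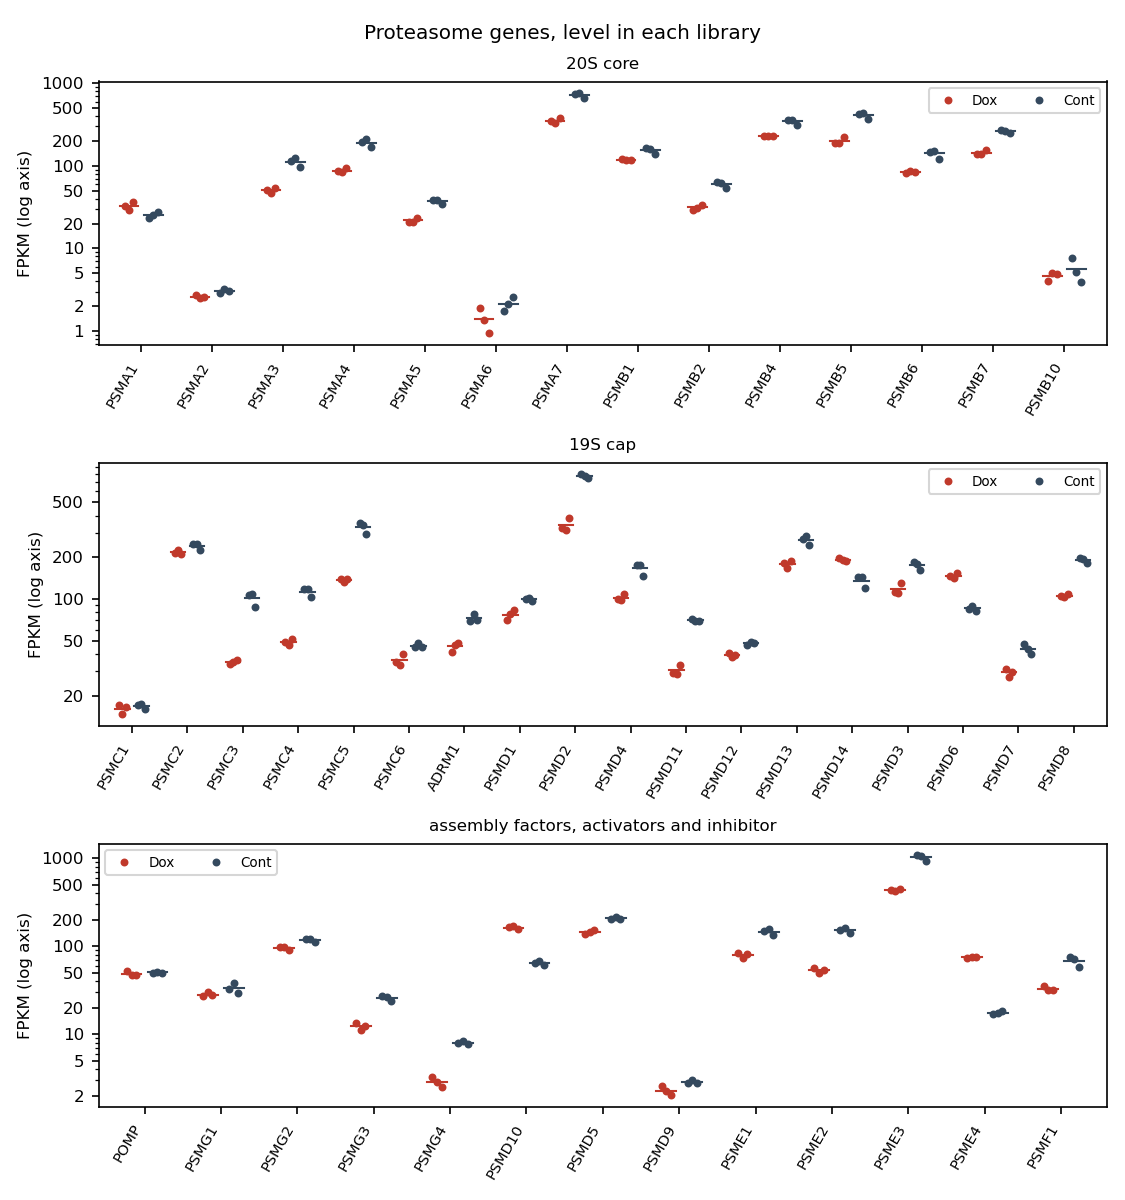
FPKM of each proteasome gene in every library on a log axis, for the 20S core, the 19S cap, and the assembly factors, activators and inhibitor. Each point is 1 library, Dox in red to the left and Cont in dark blue to the right, and the line is the mean of 3. PSMA2 and PSMA6 lie near 1 to 3 FPKM below the rest of the core, and PSMD14, PSMD6, PSMD10 and PSME4 are the genes with Dox clearly above Cont.

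The base of the cap holds 6 ATPases that unfold substrates, and its members divided into 3 with falls of over 2-fold and 3 with small changes. PSMC3 was at 33.8, 35.0 and 36.6 FPKM in Dox and 107, 109 and 86.9 FPKM in Cont (log2 change -1.49, SE 0.092, limma adjusted p = 2.33e-07). PSMC5 was at 139, 133 and 139.9 FPKM in Dox and 351, 343 and 293 FPKM in Cont (log2 change -1.25, limma adjusted p = 2.92e-07). PSMC4, whose promoter window is printed above, was at 48.8, 46.6 and 51.5 FPKM in Dox and 117, 118 and 103 FPKM in Cont, a log2 change of -1.18. No Dox library reached the lowest Cont library for these 3 ATPases. PSMC6 changed by -0.35, and PSMC2 and PSMC1 by -0.15 and -0.06 without passing the test (limma adjusted p = 0.0634 and 0.513). For PSMC1, 75.8% of the exon length is overlapped on the opposite strand and 13 pseudogenes carry its name, so its value is uncertain.

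All 4 other base genes fell, beside 42.8% of all genes. PSMD2, a scaffold that binds shuttle factors, had the highest level of the cap at 323, 314 and 385 FPKM in Dox, against 791, 775 and 748 FPKM in Cont (log2 change -1.18, limma adjusted p = 7.49e-07). PSMD4, a ubiquitin receptor, was at 99.2, 98.5 and 109 FPKM in Dox and 176, 176 and 148 FPKM in Cont, a log2 change of -0.70. ADRM1, the other ubiquitin receptor, and PSMD1, the second large scaffold, changed by -0.66 and -0.37.

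The lid removes ubiquitin chains. Its 8 genes were called in both directions, 6 lower and 2 higher, beside 42.8% and 37.6% of all genes. PSMD11 was at 29.04, 28.8 and 33.6 FPKM in Dox and 71.3, 69.9 and 69.9 FPKM in Cont (log2 change -1.18, SE 0.076, limma adjusted p = 3.00e-07). PSMD8 was at 104, 104 and 109.5 FPKM in Dox and 196, 193 and 182 FPKM in Cont, a log2 change of -0.84. Both lid subunits were lower in every Dox library. PSMD13, PSMD3, PSMD7 and PSMD12 fell by 0.57, 0.57, 0.55 and 0.27. PSMD14, the metalloprotease that cuts the chain from the substrate, was at 197, 192 and 187 FPKM in Dox and 143, 144 and 120 FPKM in Cont (log2 change 0.50, limma adjusted p = 0.000273). PSMD6, a structural lid subunit, was at 147, 142 and 154 FPKM in Dox and 85.1, 89.7 and 81.9 FPKM in Cont (log2 change 0.78, limma adjusted p = 2.22e-06). Dox libraries were above Cont libraries without overlap for both. PSMD14 made up 22.8% of the summed lid FPKM in Dox and 13.4% in Cont, and PSMD6 17.6% in Dox and 8.45% in Cont. The small subunit SEM1, outside the symbol rule, also rose (log2 change 0.79, limma adjusted p = 4.66e-05).

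Chaperones that build the core were lower or not called. PSMG4 was at 3.28, 2.86 and 2.49 FPKM in Dox and 7.93, 8.28 and 7.81 FPKM in Cont (log2 change -1.22, limma adjusted p = 1.92e-06). PSMG3, its partner in a pair that helps to form the alpha ring, was at 13.3, 11.2 and 12.4 FPKM in Dox and 27.3, 26.1 and 23.6 FPKM in Cont, a log2 change of -1.002. Both were lower in all Dox libraries. The other pair, PSMG1 and PSMG2, changed by -0.23 and -0.28, of which the change of PSMG1 did not pass (limma adjusted p = 0.0533). POMP, the maturation factor of the beta ring, was at 51.9, 47.3 and 47.0 FPKM in Dox and 49.95, 51.4 and 49.2 FPKM in Cont (limma adjusted p = 0.564).

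The 3 chaperones of the cap base moved apart. PSMD10 (gankyrin), known as an oncoprotein of hepatocellular carcinoma, was at 163, 167 and 155 FPKM in Dox and 64.4, 68.4 and 60.7 FPKM in Cont (log2 change 1.32, SE 0.069, limma adjusted p = 7.68e-08). Its Dox libraries were 2.51-fold higher on average, with no overlap. PSMD5 was at 137, 146 and 151 FPKM in Dox and 205, 212 and 205 FPKM in Cont, a log2 change of -0.52. PSMD9, at 2.29 ± 0.281 FPKM in Dox and 2.88 ± 0.140 FPKM in Cont (mean ± SD, n = 3 each), did not pass (limma adjusted p = 0.0572).

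Alternative caps of the core moved in opposite directions. PSME4 (PA200), a nuclear activator with a part in chromatin and DNA repair, was at 74.1, 74.3 and 75.3 FPKM in Dox and 17.03, 17.4 and 18.5 FPKM in Cont, 4.23-fold higher (log2 change 2.02, SE 0.065, limma adjusted p = 4.09e-09). PSME2, which with PSME1 forms the interferon-inducible PA28 activator, was at 56.9, 49.97 and 53.5 FPKM in Dox and 153, 159 and 139.9 FPKM in Cont (log2 change -1.48, limma adjusted p = 6.77e-08). The values were tight in each group, and neither gene had any overlap. PSME3, the nuclear PA28 gamma and the highest of the activators, was at 432, 424 and 441 FPKM in Dox and 1070, 1043 and 934 FPKM in Cont, a log2 change of -1.23. PSME1 and the inhibitor PSMF1 fell by 0.87 and 1.03. Within the 4 activators, PSME4 took 11.7% of the summed FPKM in Dox and 1.33% in Cont, and PSME3 67.6% in Dox and 76.3% in Cont. PSME3IP1, the PSME3 partner, was at 18.7, 17.5 and 16.8 FPKM in Dox and 27.7, 29.8 and 26.5 FPKM in Cont, a log2 change of -0.63.

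Summed over its genes, the core was at 1361 ± 64.3 FPKM in Dox and 2469 ± 191 FPKM in Cont (mean ± SD, n = 3 each), a ratio of 0.551. For the cap the sum was 1896 ± 82.3 FPKM in Dox and 2969 ± 166 FPKM in Cont, a ratio of 0.639. Cap over core was 1.40, 1.40 and 1.39 in the Dox libraries and 1.20, 1.18 and 1.23 in the Cont libraries. Every Dox library thus had relatively more summed cap transcript. That sum includes the lid genes PSMD14 (mean 191.6 FPKM in Dox, 135.8 FPKM in Cont) and PSMD6 (147.6 and 85.5 FPKM), which rose. A ratio without them was not computed, so a shift of the other cap genes relative to the core is not shown. E1 genes summed to 381 ± 15.7 FPKM in Dox and 618 ± 22.4 FPKM in Cont, and E2 genes to 1884 ± 21.5 FPKM in Dox and 2092 ± 101 FPKM in Cont, ratios of 0.616 and 0.901. Once rescaled to TPM without mitochondrially encoded genes, ratios were 0.670 for the core, 0.776 for the cap and 0.748 for E1 genes. That of E2 genes turned to 1.10 and that of the lid alone was 1.01. Without UBE2D1 the E2 ratio was 0.813 in FPKM and 0.988 after the rescaling, where the groups overlapped. All members together held 1.11% of the summed FPKM in Dox and 1.54% in Cont.

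**Figure D3:**
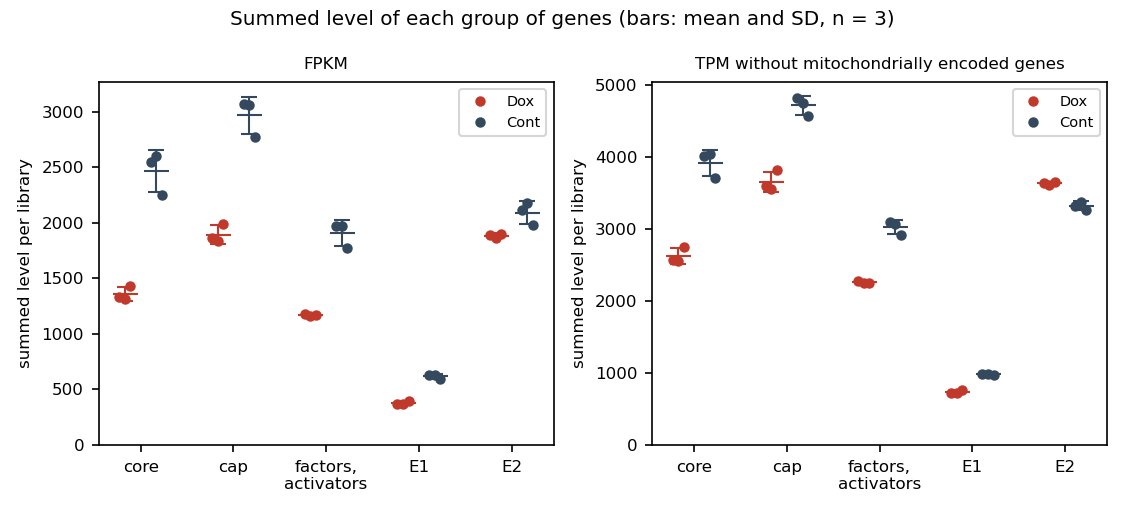
Summed level of the core, the cap, the assembly factors with activators and inhibitor, the E1 genes and the E2 genes in each library, in FPKM on the left and in TPM without mitochondrially encoded genes on the right. Points are libraries, with Dox in red left of Cont in dark blue, and bars give the mean and SD of 3. Dox lies below Cont in all 5 groups on the left, and above it for E2 on the right. The E2 sum includes UBE2D1, without which Dox and Cont overlapped on the scale at the right.

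E1 enzymes stand at the head of the relay. UBA1, which charges most cellular ubiquitin, was at 130, 122 and 125 FPKM in Dox and 195, 185 and 190.3 FPKM in Cont (log2 change -0.59, SE 0.061, limma adjusted p = 9.36e-06). UBA6, the second ubiquitin E1, was at 12.4, 12.2 and 15.8 FPKM in Dox and 10.5, 11.6 and 13.4 FPKM in Cont and was not called (log2 change 0.17, limma adjusted p = 0.216). Its groups overlapped, and it was called higher in TPM without mitochondrially encoded genes (0.44) and under median-of-ratios scaling (0.29). UBA2, the catalytic partner of the SUMO E1, was at 191, 202 and 221 FPKM in Dox and 371, 387 and 344 FPKM in Cont (log2 change -0.84, limma adjusted p = 4.03e-06). UBA3, catalytic in the NEDD8 E1, was at 30.3, 25.7 and 28.5 FPKM in Dox and 40.1, 39.5 and 34.4 FPKM in Cont, a log2 change of -0.42 that was no longer called in TPM without mitochondrially encoded genes (-0.15). UBA1, UBA2 and UBA3 were lower in every Dox library. UBA7, the E1 of ISG15, was at 0.659, 0.469 and 0.471 FPKM in Dox and 0.742, 1.03 and 0.661 FPKM in Cont and missed the filter. The non-catalytic partners outside the rule also fell, SAE1 of UBA2 by 1.79 and NAE1 of UBA3 by 1.47.

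**Figure D4:**
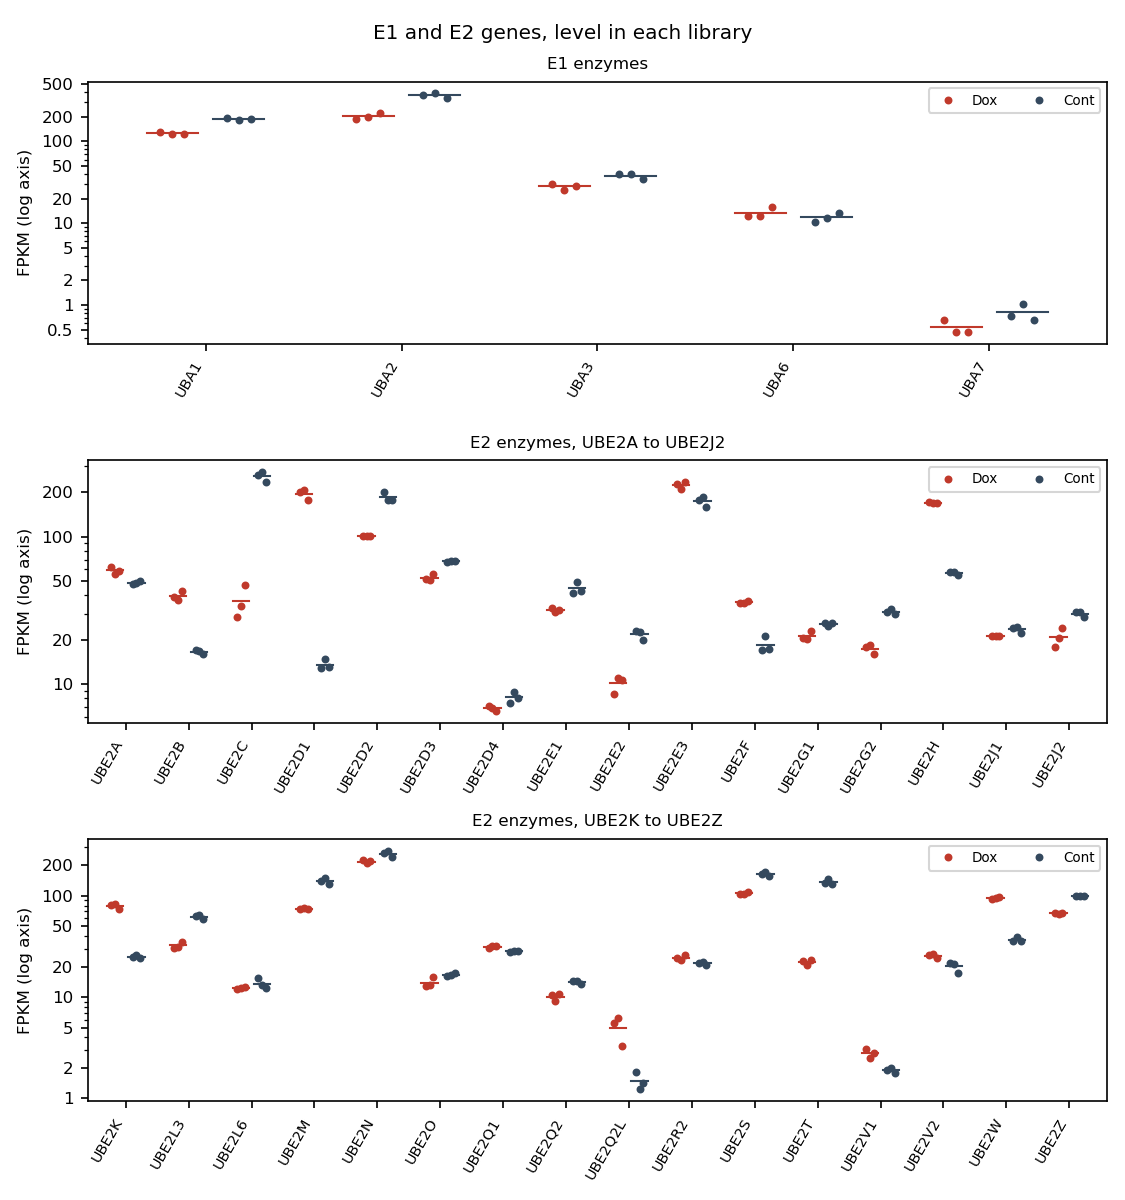
FPKM of E1 and E2 genes in every library on a log axis. Each point is 1 library, Dox in red to the left and Cont in dark blue to the right, and the line is the mean of 3. UBE2D1, UBE2H, UBE2K and UBE2W lie far above their Cont points in Dox, and UBE2C and UBE2T far below.

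UBE2D1 had the largest change of all members. It is one of the UBE2D enzymes, which work with many E3 ligases and often place the first ubiquitin. Its level was 199.8, 206 and 178 FPKM in the Dox libraries and 12.9, 14.7 and 13.03 FPKM in the Cont libraries, 14.4-fold higher (log2 change 3.75, SE 0.082, limma adjusted p = 7.87e-10). The lowest Dox library was far above the highest Cont library. UBE2D2 was at 102, 101 and 101 FPKM in Dox and 203, 177 and 176 FPKM in Cont, a log2 change of -0.86, UBE2D3 fell by 0.36, and UBE2D4 did not pass (log2 change -0.21, limma adjusted p = 0.0513). UBE2D1 thus made up 54.7 ± 2.27% of the summed UBE2D FPKM in Dox and 4.94 ± 0.514% in Cont, while UBE2D2 made up 28.5% in Dox and 67.3% in Cont. The summed level of the 4 genes was 355 FPKM in Dox and 275 FPKM in Cont. The promoter window of UBE2D1 held none of the 5 motifs.

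**Figure D5:**
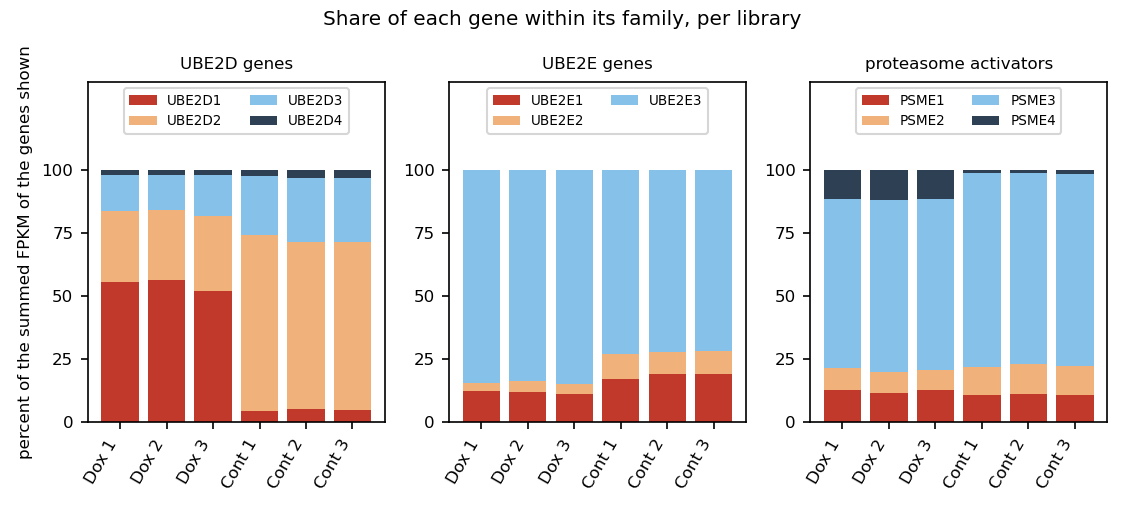
Percent of the summed FPKM held by each gene within the UBE2D family, the UBE2E family and the proteasome activators PSME1 to PSME4, per library, Dox left of Cont. UBE2D1 fills 54.7% of the UBE2D sum on average in Dox and 4.94% in Cont, and PSME4 11.7% of the activators in Dox and 1.33% in Cont.

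A further 4 ubiquitin E2 genes were over 2-fold higher. UBE2K, which builds chains read by the proteasome, was at 81.6, 82.7 and 74.2 FPKM in Dox and 25.0, 26.3 and 24.1 FPKM in Cont (log2 change 1.62, limma adjusted p = 2.51e-08). UBE2H, the E2 of the CTLH ligase complex, was at 172, 169 and 170.2 FPKM in Dox and 57.6, 57.9 and 54.8 FPKM in Cont (log2 change 1.57, limma adjusted p = 1.04e-08). Libraries of the same group differed little in either gene. UBE2W, which attaches ubiquitin to protein amino termini, was at 93.2, 95.5 and 96.2 FPKM in Dox and 35.8, 39.5 and 35.5 FPKM in Cont, a log2 change of 1.34. UBE2B, a homolog of yeast Rad6 that acts in DNA damage tolerance, was at 39.1, 37.2 and 42.5 FPKM in Dox and 16.98, 16.8 and 16.1 FPKM in Cont, a log2 change of 1.20. Its close paralog UBE2A was at 62.2, 56.2 and 58.6 FPKM in Dox and 47.5, 48.8 and 49.97 FPKM in Cont, a log2 change of 0.27. The groups did not overlap for any of these. UBE2E3 was at 228, 211 and 235 FPKM in Dox and 176, 185 and 159 FPKM in Cont (log2 change 0.37, limma adjusted p = 0.0013), while its paralogs UBE2E2 and UBE2E1 fell by 1.05 and 0.47, so UBE2E3 held 84.3% of the UBE2E sum in Dox and 72.3% in Cont. UBE2Q2L was at 5.50, 6.25 and 3.26 FPKM in Dox and 1.82, 1.23 and 1.42 FPKM in Cont (log2 change 1.24, SE 0.19, limma adjusted p = 0.000163), with the related UBE2Q2 lower by 0.45 on the log2 scale. Reads shared between that pair and the 8 named pseudogenes of UBE2Q2 could affect both values.

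The E2 variants have no catalytic cysteine and pair with UBE2N to build chains used in signalling and repair. UBE2V1 was at 3.04, 2.51 and 2.79 FPKM in Dox and 1.90, 1.98 and 1.78 FPKM in Cont (log2 change 0.39, limma adjusted p = 0.00589), a call that ended under quantile normalization. UBE2V2 was at 26.1, 26.4 and 24.4 FPKM in Dox and 21.6, 21.3 and 17.4 FPKM in Cont, a log2 change of 0.34. UBE2N itself fell by 0.26, with 39.5% of its exon length overlapped on the opposite strand, and its change was above 0 in 2 of 18 alternatives. For UBE2V1, 42.9% of the exon length is shared with the readthrough gene TMEM189-UBE2V1.

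UBE2C and UBE2T had the largest falls. UBE2C, which starts ubiquitin chains for the anaphase-promoting complex, was at 28.6, 33.7 and 46.9 FPKM in Dox and 261, 274 and 234 FPKM in Cont, 7.04-fold lower (log2 change -2.81, SE 0.15, limma adjusted p = 9.21e-08). UBE2T, the E2 of the Fanconi anaemia DNA repair pathway, was at 22.5, 20.9 and 23.2 FPKM in Dox and 134, 147 and 129 FPKM in Cont, 6.16-fold lower (log2 change -2.57, SE 0.075, limma adjusted p = 2.49e-09). Dox 3 was the highest of the Dox libraries for UBE2C, though still far under every Cont library. UBE2S, which extends the chains begun by UBE2C, was at 105, 104 and 108 FPKM in Dox and 162, 171 and 158 FPKM in Cont, a log2 change of -0.63. All 8 proliferation markers fell in the same libraries, beside 42.8% of all genes, with a median change of -2.11. Their sum was 365 to 531 FPKM in Dox, highest in Dox 3, and 998 to 1006 FPKM in Cont. Their part in the change of UBE2C, UBE2T and UBE2S was not tested. UBE2L3, which serves HECT and RBR ligases, fell by 0.93. The E2 enzymes of endoplasmic reticulum degradation UBE2G2 and UBE2J2 fell by 0.80 and 0.52, and the third, UBE2J1, did not pass (log2 change -0.15, limma adjusted p = 0.0655). UBE2G1 and the hybrid E2 and E3 enzyme UBE2O each fell by 0.26, and the call of UBE2O ended without Dox 1, Dox 2, Cont 2 or Cont 3. UBE2Q1 and UBE2R2 did not pass (log2 changes 0.14 and 0.17, limma adjusted p = 0.0677 and 0.0533).

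The E2 enzymes of ubiquitin-like proteins included an opposed NEDD8 pair. UBE2M, which modifies most cullins with NEDD8, was at 73.4, 75.4 and 74.6 FPKM in Dox and 141, 149 and 131 FPKM in Cont (log2 change -0.90, limma adjusted p = 8.91e-07). UBE2F, which serves CUL5, was at 35.3, 35.6 and 36.8 FPKM in Dox and 17.1, 21.3 and 17.2 FPKM in Cont (log2 change 0.92, limma adjusted p = 6.73e-06). Neither had overlapping groups, and 16.2% of the UBE2F exon length is shared with the readthrough gene UBE2F-SCLY. UBE2Z, the E2 used by UBA6, fell by 0.56. UBE2L6, the ISG15 E2, did not pass (log2 change -0.13, limma adjusted p = 0.211). UBE2QL1, UBE2U, UBE2NL and UBE2L5 were not analysed here.

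Calls on smaller changes depended on the processing. Of the 71 members called, 56 kept call and sign under all 18 alternatives. The other 15 included PSMA6, PSMB1, PSMC6, PSMD1, PSMD12, PSMG2, UBA3, UBE2D3, UBE2G1, UBE2N, UBE2O, UBE2Q2 and UBE2V1, with changes between -0.45 and 0.39. Among them PSMD12, UBE2G1, UBE2N and UBE2O changed sign under at least 1 alternative. Opposite-strand genes overlap 30.7% of the exon length of PSMD7, and since the use of strand in counting is not stated, its value is uncertain too. A gene on the same strand overlaps 19.9% of that of PSMD9.

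UBB, which encodes a run of ubiquitin units, and the ribosomal fusion gene RPS27A fell by 0.42 and 0.91. Among ubiquitin-like modifiers, SUMO3, SUMO2, URM1 and NEDD8 fell, and ISG15 and UFM1 rose by 0.69 and 0.41. Of 10 E1 and E2 partners outside the rule, SAE1, NAE1, CDC34 and ATG7 fell, the giant hybrid enzyme BIRC6 rose by 1.22, MOCS3 and ATG10 rose by 0.29 and 0.32, and UFC1, ATG3 and AKTIP did not pass.

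Proteins that bind the proteasome were called in both directions, with 5 of 13 higher, PSMD10 included, and 4 lower. Of all genes, 37.6% were higher and 42.8% lower. The deubiquitinases UCHL5 and USP14 fell by 1.40 and 0.84, the importin IPO9 by 1.06 and the chaperone PAAF1 by 0.35. ECPAS, SEM1, ZFAND5 and AKIRIN2, the last known to carry proteasomes into the nucleus with IPO9, rose by 0.83, 0.79, 0.75 and 0.53. UBE3C, TXNL1, PITHD1 and UBLCP1 did not pass. Of 11 shuttle and unfoldase genes 8 fell (42.8% of all genes did), led by UBQLN4 at -1.17 and the unfoldase VCP at -0.99. DDI2, the protease that activates NFE2L1, was at 17.4, 18.1 and 17.3 FPKM in Dox and 4.67, 4.37 and 4.89 FPKM in Cont (log2 change 1.72, limma adjusted p = 3.48e-08). UBQLN1 and NPLOC4 did not pass.

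Among 11 regulators of proteasome gene transcription, 4 rose and 4 fell, beside 37.6% and 42.8% of all genes. NFE2L1, the main activator when proteasome function is impaired, did not pass (log2 change -0.07, limma adjusted p = 0.353), nor did NFE2L2 (-0.13, limma adjusted p = 0.106) or NGLY1. BACH1, a repressor at the same elements, and the small partner MAFF rose by 1.22 and 1.18, and MAFG and NFYC by 0.53 and 0.51. NFYA, STAT3, NFYB and MAFK fell by 0.45, 0.42, 0.36 and 0.18. These are transcript levels only, and protein levels, cleavage of NFE2L1 and proteasome activity were not analysed here.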

How the data were processed

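The authors deposited 1 table of 13117 genes in 6 libraries as log2 FPKM, from -8.59 to 13.9, with a small offset before the logarithm. Per the submitters' processing notes, FastQC 0.11.7 and the genome build GRCh38 were used. The aligner, the counting tool, its use of strand and the gene annotation are not given in the sources used here. Columns were matched to samples by title, since 1 description names another sample's column. The deposited log2 values were raised back to FPKM as powers of 2, as the design foresaw.

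Dox and Cont were compared on log2(FPKM + 1), a pseudocount of 1, with limma 3.58.1 (R 4.3.3), using moderated statistics with an intensity trend. The p-values are two-sided and adjusted by Benjamini-Hochberg over 11526 genes, those that reached 1 FPKM in 3 or more libraries. The scale understates changes of low genes. The fit was tested on simulated data. Means carry the SD of 3 libraries. Relative depth came from the steps of 307 genes with shared lowest values, all whole within 0.05 reads. Depth in reads is unknown.

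The members, gene lists and tests were chosen with earlier results of these data known. Values in all libraries are given for the 2 largest changes of each role, every E1, the catalytic core genes, members called against most of their role and those missing the filter. PSMA2, PSMA6, PSMA7, PSMC4, PSME3, POMP, UBE2D2, UBE2S, UBE2T and DDI2 are given in full outside this rule and were chosen after their values were seen. Some members are not reported here. Exon overlaps and named pseudogenes come from GENCODE 29, promoters from RefSeq (GRCh38.p14). Alternatives were 2 pseudocounts, the deposited log2 values, 2 filters, 4 scalings, 2 moderations, the replicate number as a block and each library left out.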

Additional observations from a re-analysis of the deposited data

How the results depend on the processing

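The numbers of core, cap and assembly factor calls in each direction stayed within 1.5 times their main values under all 18 alternatives. The exception among E1 and E2 genes was TPM without mitochondrially encoded genes, with 13 lower and 14 higher, beside 21 and 11. Under the same rescaling the ratios of summed levels, Dox over Cont, were 0.670 for the core, 0.776 for the cap and 0.748 for E1 genes. For E2 genes the ratio was 1.10, reversed from 0.901, but without UBE2D1 it was 0.988 and the groups overlapped. Median changes were then -0.47 for the core, -0.29 for the cap and 0.01 for E1 and E2 genes, beside 0.19 for all genes. Leaving out 1 library gave 10 to 11 core genes lower and 1 higher, 14 to 15 cap genes lower and 2 higher, 20 to 22 E1 and E2 genes lower and 11 to 12 higher, and 8 to 9 assembly factors and activators lower and 2 higher. Over all genes it gave 4539 to 4860 lower and 3589 to 4310 higher. With the replicate number as a block, 10 core, 14 cap and 21 E1 and E2 genes were lower, 11 E1 and E2 genes were higher, and 4937 and 4335 of all genes were lower and higher. Deviations of libraries with the same number correlated little over genes (0.037, -0.005 and 0.079). With 3 libraries per group these correlations cannot exclude a shared culture or batch, and the labels give only the number. The calls of UBA3 and UBE2V1 ended and that of UBA6 was gained under a scaling, as given above. Low values limit members at a few FPKM, among them PSMA2, PSMA6, PSMB10, PSMD9, PSMG4, UBE2Q2L, UBE2V1 and UBA7. The causes of these dependences were not tested.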

Other observations

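The anaphase-promoting complex, the ligase served by UBE2C and UBE2S, had 7 of 16 genes lower, 2 higher and 7 not called. Of all genes, 42.8% were lower and 37.6% higher. The median change of the complex was -0.17, beside -0.06 for all genes. Its activator CDC20 fell by 2.86 (limma adjusted p = 1.93e-07), while the other activator, FZR1, fell by 0.40 (limma adjusted p = 0.00589). The subunits ANAPC7 and ANAPC5 fell by 1.10 and 0.78. ANAPC2, the cullin-like subunit, and ANAPC1, the largest scaffold, rose by 0.56 and 0.18. ANAPC11, ANAPC13 and ANAPC16 fell by 0.38, 0.28 and 0.23, and ANAPC4, ANAPC10, ANAPC15, CDC16, CDC23, CDC26 and CDC27 did not pass the test. The summed level of the 16 genes was 674 to 697 FPKM in Dox and 938 to 1028 FPKM in Cont. That sum includes CDC20, at a mean of 24.5 FPKM in Dox and 179 FPKM in Cont. It also includes ANAPC5 (78.1 and 134.8 FPKM) and ANAPC7 (34.7 and 75.4 FPKM), so it does not describe the other subunits.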
